A study of Mus musculus with 9 samples.

Results

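Regulators of G protein signalling (RGS) form a gene family, and 9 of its genes were followed here through 9 RNA-seq libraries of mouse megakaryocyte-erythroid progenitors (MEPs): Rgs1, Rgs2, Rgs3, Rgs10, Rgs12, Rgs14, Rgs16, Rgs18 and Rgs19. They were chosen by symbol among the 35275 gene identifiers of the count file, and all 9 were found. The choice was made with the counts of these libraries in view: 8 of the 9 are the RGS genes that passed the filter on low counts, and Rgs16, which did not, is the remaining one. The other 13 RGS genes of the count file were not detected or nearly so.

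MEPs are bone marrow cells that give rise to red cells and to platelet-forming megakaryocytes. They were sorted as Lin-ckit+CD34- cells with low FcγRII/III from mouse bone marrow and stained with HS3A8, a single-chain antibody (scFv) that binds certain modification patterns of the sugar heparan sulfate (HS). HS3A8-high MEPs were the part of the population that bound more of it, and HS3A8-low MEPs the part that bound less. MPB49 control MEPs were mock-sorted with a control scFv without HS binding, and they stand for undivided MEPs. Each of the 3 groups has 3 libraries of 25000 cells. No transgene, drug or time course separates the groups. The study's methods describe its mice as matched for age and sex and list C57Bl/6 wild-type animals among several strains, without tying a strain to these libraries. A figure legend of the study names 3 individual mice for the HS3A8-high and HS3A8-low data, without mention of the control there. The study does not state if the HS3A8-high and HS3A8-low cells of a replicate shared a mouse. Where replicates are not from separate animals, a p-value measures only the spread between these libraries.

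A receptor coupled to a heterotrimeric G protein acts by loading the Gα subunit with GTP, which frees Gα and Gβγ to reach their effectors. RGS proteins bind the GTP-loaded Gα subunit through a shared RGS domain and speed the hydrolysis of GTP, so that the signal ends sooner. In platelets, Rgs18 and Rgs10 are known brakes on activation by thrombin, thromboxane and ADP, and Rgs18 is a gene of megakaryocytes and platelets. Rgs1 is best known from lymphocytes, where it dampens responses to chemokines, and Rgs2 prefers Gαq, the subunit that activates phospholipase C beta.

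The members fall into kinds by their proteins. Rgs1, Rgs2, Rgs16 and Rgs18 are small proteins of little more than the RGS domain, with 209, 211, 201 and 235 residues in the longest complete coding transcript. Rgs3 belongs to the same group by sequence but its longest form has 966 residues. Rgs10, Rgs12 and Rgs14 form another group, in which Rgs10 has 181 residues and Rgs12 and Rgs14, with 1451 and 547, carry further domains. Rgs19, with 243 residues and also known as GAIP, belongs to a further kind with a cysteine-rich amino-terminal end.

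Rgs2, Rgs1 and Rgs18 lie together. On GRCm38, the build that mm10 names, they occupy chr1:143999338-144004161, chr1:144242296-144249242 and chr1:144752683-144775435, all on the minus strand. From the start of the first to the end of the last are 776.1 kb, and the 5 protein-coding genes annotated there are all RGS genes: these 3, Rgs13 and Rgs21. Coding sequences of Rgs1, Rgs2 and Rgs18 are shown because these are small RGS genes with appreciable counts that lie in 1 run. Over aligned residues, Rgs1 and Rgs2 were 41.8% identical, Rgs1 and Rgs18 39.1%, and Rgs2 and Rgs18 44.7%. A window of 60 bases per gene lies in exon 4 and codes for part of the RGS domain, with capitals for the bases shared by all 3 genes (42 of 60, and 16 of 20 encoded residues).
Rgs1, chr1:144246274-144246333, minus strand: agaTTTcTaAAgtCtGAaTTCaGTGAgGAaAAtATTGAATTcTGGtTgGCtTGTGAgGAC
Rgs2, chr1:144002203-144002262, minus strand: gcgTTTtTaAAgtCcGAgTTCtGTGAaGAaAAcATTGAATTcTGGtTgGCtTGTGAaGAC
Rgs18, chr1:144756010-144756069, minus strand: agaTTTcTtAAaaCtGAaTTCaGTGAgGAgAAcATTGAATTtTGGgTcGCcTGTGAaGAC
The shared stretches are short. No stretch of 50 bases in the transcripts of Rgs1, Rgs2, Rgs10, Rgs18 or Rgs19 occurs in another annotated gene, so reads of these genes can be told from those of their relatives. The share of such stretches was 11.4% for Rgs3, 8.34% for Rgs16, 4.28% for Rgs12 and 0.705% for Rgs14, whose counts are less certain to that extent. Part of Rgs12 (5.50% of its exon bases) and of Rgs16 (10.1%) overlaps an antisense gene, and without a stated strand setting reads from the 2 strands cannot be told apart.

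The remaining members are scattered over other chromosomes. Rgs10 is at chr7:128373621-128418758 on the minus strand, Rgs19 at chr2:181688419-181693977 on the minus strand, Rgs12 at chr5:34949445-35039644, Rgs14 at chr13:55369732-55384687 and Rgs3 at chr4:62559847-62704001, the last 3 on the plus strand. Rgs16 is on chromosome 1 too, at chr1:153740349-153745468 on the plus strand, outside the run of 5 genes.

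Promoter sequences of 300 bases, from 250 before to 50 after an annotated start, came from RefSeq (GRCm38.p6) and were found for 6 of the 9 members, not including Rgs1, Rgs14 and Rgs18. Those of Rgs2, Rgs10 and the first of 3 annotated starts of Rgs19 are shown as examples, Rgs2 and Rgs19 being members whose levels did not overlap between the HS3A8 fractions and Rgs10 one whose levels did. Capitals mark matches on either strand to the 6 motifs searched: AGATAA and TGATAA (read by GATA factors), GGAAGT (read by ETS factors), TGACGTCA (the cyclic AMP response element), TATAAA and CCAAT. None of the 6 lies within another, and no matches overlapped in the promoters shown.
Rgs2, chr1:144004100-144004399, minus strand: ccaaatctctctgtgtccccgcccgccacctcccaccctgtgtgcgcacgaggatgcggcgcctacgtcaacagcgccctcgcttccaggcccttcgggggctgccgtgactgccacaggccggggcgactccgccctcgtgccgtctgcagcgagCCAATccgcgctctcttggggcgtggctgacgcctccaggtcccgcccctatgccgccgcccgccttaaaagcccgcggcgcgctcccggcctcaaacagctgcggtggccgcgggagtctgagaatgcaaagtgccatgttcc
Rgs19, chr2:181693928-181694227, minus strand: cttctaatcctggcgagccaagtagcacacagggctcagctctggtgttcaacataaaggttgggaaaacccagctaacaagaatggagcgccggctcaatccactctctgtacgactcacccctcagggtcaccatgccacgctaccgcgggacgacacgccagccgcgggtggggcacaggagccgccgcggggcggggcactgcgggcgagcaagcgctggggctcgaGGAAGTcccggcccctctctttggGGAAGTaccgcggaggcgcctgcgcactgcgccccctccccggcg
Rgs10, chr7:128418123-128418422, minus strand: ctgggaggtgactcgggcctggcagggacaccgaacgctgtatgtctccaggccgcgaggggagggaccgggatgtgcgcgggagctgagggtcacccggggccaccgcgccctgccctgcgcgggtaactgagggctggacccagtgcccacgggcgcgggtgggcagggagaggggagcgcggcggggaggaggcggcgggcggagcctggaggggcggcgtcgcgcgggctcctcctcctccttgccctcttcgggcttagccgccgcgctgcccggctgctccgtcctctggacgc
The Rgs2 promoter held 1 CCAAT, a motif present in 37.4% of the 32851 RefSeq promoters of this length. The Rgs19 promoter shown held 2 copies of GGAAGT (its other starts have 2 and 1), which 23.8% of all promoters hold at least once. The Rgs10 promoter, at 76% GC, held none of the 6. Members not shown held such letters too. The GATA-type word AGATAA was at 1 of the 2 starts of Rgs3 (11.2% of all promoters hold it), whose other start held GGAAGT, and the TATA word was at both. The related word TGATAA was at 1 of the 2 starts of Rgs12 (9.05% of all promoters), together with 1 copy of the word seen in Rgs19. Rgs16 held 1 CCAAT. These are matches of letters only, and binding was not measured.

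Library totals ran from 11781637 to 15850037 counts with 13936 to 15659 genes detected, and 3 counts correspond to 0.189 to 0.255 CPM (counts scaled to the library's total). Levels are CPM with TMM scaling over the 9 libraries, so that libraries are comparable, and levels per length are CPM per kb of annotated exon. Floors cover counting error only, while the intervals of fold changes come from the fitted spread between libraries. The sum of 20 erythroid markers was 18140 to 19280 CPM in HS3A8-high, 14130 to 15880 in HS3A8-low and 15770 to 17760 in the control. The fractions did not overlap. Car1 and Car2 made up much of this sum, at 5245 to 5773 and 5509 to 6027 CPM in HS3A8-high. Others were scarce: Alas2 and Slc4a1 did not exceed 9.28 and 9.01 CPM in any library. Of the 20, 2 were called higher in HS3A8-high, 7 with the replicate block, and none lower. By fitted value 13 of the 20 were higher and 7 were lower. Fractions that carry 1 replicate number deviated together from their group means. Control replicate 1 stood apart from the other control libraries. Replicate 3 of both fractions held granulocyte and monocyte markers: the sum of 16 genes was 2067 CPM in HS3A8-high replicate 3 against 26.0 and 14.3 in the other HS3A8-high libraries, and 5357 against 175.5 and 321.9 in HS3A8-low, while the control libraries held 117.7 to 230.4 CPM. Results are therefore also given without replicate 3.

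Between HS3A8-high and HS3A8-low MEPs, Rgs1 and Rgs18 differed and both were lower in HS3A8-high, by 22.1-fold and 3.40-fold. With the replicate number as a block Rgs2, Rgs14 and Rgs19 were also called lower, by 8.85-fold, 2.29-fold and 1.79-fold. Rgs10 and Rgs12 had overlapping levels in the 2 fractions. Rgs3 and Rgs16 were scarce, and Rgs3 was without a count in 2 of the 3 HS3A8-high libraries. The genes are taken in turn by kind.

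**Figure D1:**
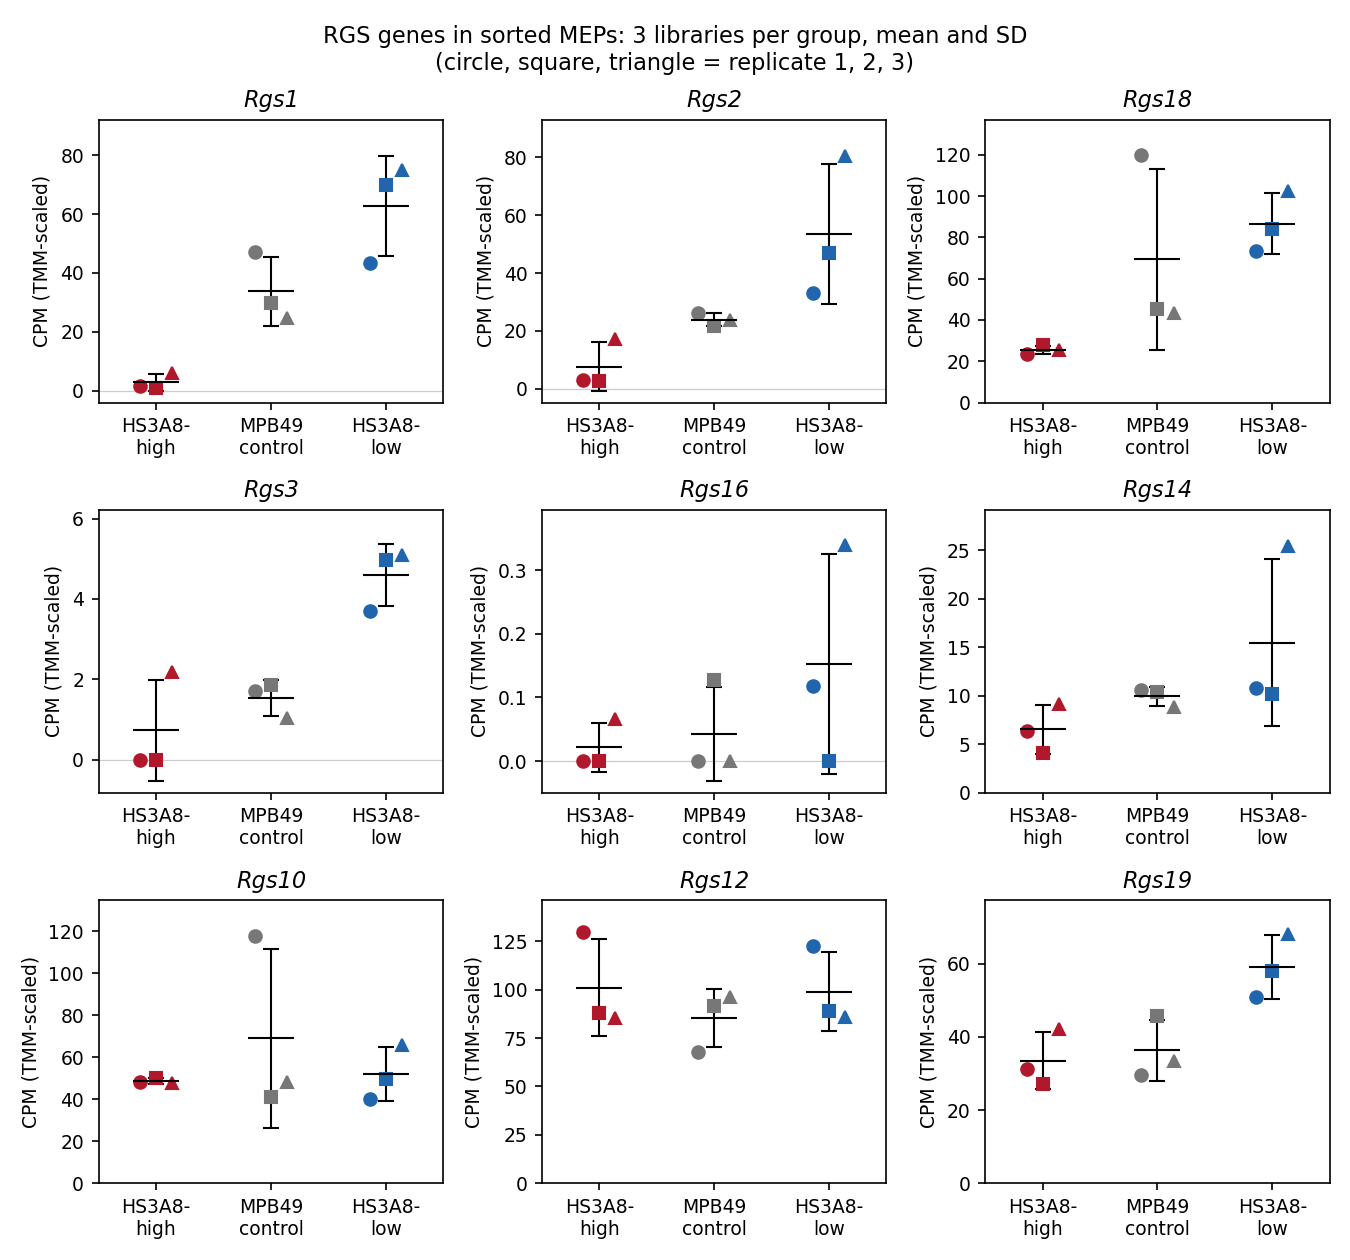
Level of each of the 9 RGS genes in CPM (vertical axes, 1 scale per panel) in the 3 HS3A8-high, 3 MPB49 control and 3 HS3A8-low libraries, with symbols for replicates 1, 2 and 3, a bar at the mean and whiskers of 1 SD. The HS3A8-high libraries lie below all HS3A8-low libraries for Rgs1, Rgs2, Rgs18, Rgs3, Rgs14 and Rgs19, and overlap them for Rgs10, Rgs12 and Rgs16, the last of which reached no more than 4 counts.

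Rgs18, the platelet regulator, was measured at 23.7, 27.7 and 25.6 CPM in HS3A8-high replicates 1, 2 and 3, and at 73.3, 84.2 and 102.5 CPM in HS3A8-low. The control libraries gave 119.8, 45.1 and 43.2 CPM. The 3 HS3A8-high libraries were close together and below all 6 others, while control replicate 1 was above all others. HS3A8-high was lower than HS3A8-low by 1.77 on the log2 scale (log2 fold change -1.77, SE 0.145, 95% confidence interval -2.11 to -1.42), with an adjusted p of 0.00712 in edgeR's quasi-likelihood test. It was the gene with the sixth smallest p of 11791 tested (rank 6). In same-numbered libraries the level in HS3A8-low was 3.10, 3.04 and 4.01 times that in HS3A8-high. Without HS3A8-low replicate 2 the adjusted p was 0.0685 at a log2 fold change of -1.77, and with all 9 libraries in 1 fit it was 0.0514.

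Other megakaryocyte genes were also lower in HS3A8-high, and their part in the Rgs18 difference was not tested. Of 20 megakaryocyte markers, 15 were tested and 6 were called lower (10 with the block), with none higher, and 7 of the 15 passed the count filter through HS3A8-low alone. Their summed level was 84.2 to 128.6 CPM in HS3A8-high, 314.2 to 608 in HS3A8-low and 243.4 to 343.9 in the control. The defining markers Itga2b and Pf4 were low but present in HS3A8-high, at 4.33 to 7.89 and 1.86 to 4.66 CPM, against 68.3 to 125.8 and 49.9 to 84.1 in HS3A8-low. Gp6, a platelet collagen receptor, was at or near 0 in all groups and did not exceed 0.235 CPM. Gp5, a glycoprotein of the von Willebrand factor receptor complex, ranged from 39.4 to 54.7 CPM and from 42.3 to 58.1 CPM in the same groups, which overlapped. The median log2 fold change of the 15 was -3.09, with 14 lower and 1 higher by fitted value. Over all 11791 genes tested, 3.21% were called lower in HS3A8-high and 0.611% higher, or 8.27% and 3.32% with the block. The calls in the other marker lists stand beside the same shares. Of 14 stem and multipotent progenitor markers, 13 were tested and 3 were called lower in HS3A8-high (9 with the block) with none higher. By fitted value 12 of the 13 were lower and 1 was higher, with a median log2 fold change of -2.39. Of the 13, 4 passed the count filter through HS3A8-low alone. The sum of these 14 genes was 724.5 to 991.3 CPM in HS3A8-high, 957.3 to 1376 in HS3A8-low and 744.8 to 1096 in the control. Kit and Gata2, the most abundant, ranged from 491.7 to 788.4 and from 132.4 to 145.8 CPM in HS3A8-high, and from 386.7 to 709.8 and from 200.1 to 405.9 CPM in HS3A8-low. Kit, the largest part of the sum, overlapped between the fractions, and Gata2 did not. The part of the stem and progenitor markers in the differences of the RGS genes was not tested. In bulk RNA, fewer cells of a type and less RNA per cell cannot be told apart.

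Rgs1 was almost absent from HS3A8-high MEPs, with 1.43, 0.912 and 6.16 CPM from 23, 12 and 93 counts. HS3A8-low libraries held 43.4, 70.0 and 74.9 CPM and control libraries 47.1, 29.6 and 24.8 CPM. Every HS3A8-high library was below every other library, and replicate 3 was the highest of the 3. The log2 fold change of HS3A8-high over HS3A8-low was -4.46 (SE 0.672, 95% confidence interval -6.05 to -2.87), with an adjusted p of 0.0257 in edgeR's test. The ratio of HS3A8-low to HS3A8-high was 30.3, 76.8 and 12.1 in replicates 1, 2 and 3. The call for Rgs1 depended on single libraries: the adjusted p rose to 0.0999 or 0.0771 on leaving out replicate 1 or 2 of HS3A8-high, and to 0.069 or 0.136 on leaving out replicate 1 or 2 of HS3A8-low, with log2 fold changes from -4.65 to -4.05.

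Lymphoid markers moved in the same direction as Rgs1, and their part in the result was not tested. Of 14 T and NK cell markers, 12 were tested and 3 were called lower in HS3A8-high (7 with the block) with none higher, and 11 of the 12 passed the count filter through HS3A8-low alone. Their summed level was 4.64 to 38.1 CPM in HS3A8-high, 207.5 to 283.6 in HS3A8-low and 61.1 to 127 in the control. The most abundant of them were Nkg7, a granule protein of cytotoxic cells (3.80 to 25.7 CPM in HS3A8-high, 99.5 to 116.2 in HS3A8-low), and the transcription factor gene Tcf7 (0.304 to 1.06 and 31.0 to 81.6 CPM). The T cell marker Cd3e was at 0 in 2 HS3A8-high libraries and did not exceed 1.73 CPM in HS3A8-low, and Cd4 was at 0 in all 6 libraries of both fractions. Other T cell markers of the list were present in HS3A8-low. Trbc1 and Lck reached 25.1 and 23.5 CPM there, and did not exceed 0.795 and 4.57 CPM in HS3A8-high. The B cell markers Ms4a1 and Pax5 were at 0 in all 9 libraries. The sum of 10 B cell markers was 4.41 to 43.0 CPM in HS3A8-high, 45.6 to 118.8 in HS3A8-low and 24.4 to 32.3 in the control. Of the 10, 4 were tested, and none was called without the block and 2 with it. Of these 4 B cell markers, 2 passed the count filter through HS3A8-low alone. Ighm, the immunoglobulin heavy chain, and Cd79b led that list, with 1.75 to 35.5 and 0.559 to 3.38 CPM for HS3A8-high libraries and 33.5 to 102 and 7.64 to 10.2 CPM for HS3A8-low ones. Immediate-early genes, which are switched on fast by many stimuli, included 10 of 14 tested that were called lower in HS3A8-high (11 with the block) and none higher, and the sum of 16 was 918.5 to 1345 CPM against 2376 to 2774 in HS3A8-low and 1464 to 2863 in the control. Fos, the most abundant, was at 246.1 to 344.9 CPM and 551.5 to 659.5 CPM.

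Rgs2 gave 3.11, 2.58 and 17.3 CPM in HS3A8-high, against 33.2, 46.8 and 80.5 CPM in HS3A8-low. The control libraries lay close together at 26.2, 21.8 and 23.8 CPM, above all HS3A8-high and below all HS3A8-low libraries. Without a block the log2 fold change was -2.81 (SE 0.762) and the adjusted p was 0.0992 in edgeR's test. With the replicate block it was -3.15 (SE 0.359) with an adjusted p of 0.00804. Replicate 3 was the highest library of both fractions, and the ratio of HS3A8-low to HS3A8-high was 10.7, 18.1 and 4.65 in replicates 1, 2 and 3. Without replicate 3 of both groups the log2 fold change was -3.78 and the adjusted p 0.0025.

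Rgs3, a regulator of Gαi and Gαq signals, had 0, 0 and 33 counts in HS3A8-high, against 63, 69 and 60 in HS3A8-low. In CPM, the latter were 3.70, 4.96 and 5.10, and the control libraries gave 1.71, 1.85 and 1.03. All counts of Rgs3 in HS3A8-high came from replicate 3, at 2.19 CPM. Taking the floor of 3 counts per library for a count of 0, HS3A8-low was at least 19.9-fold higher in replicate 1 and at least 21.8-fold higher in replicate 2, and in replicate 3 the ratio was 2.33. The fitted log2 fold change was -2.64 (95% confidence interval -5.82 to 0.53) with an adjusted p of 0.336 in edgeR's test, and with the block -3.70 and 0.106. Rgs3 passed the count filter through the HS3A8-low libraries, so its direction was partly fixed by the filter.

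The granulocyte and monocyte markers of replicate 3 moved with Rgs1, Rgs2 and Rgs3 within HS3A8-high. So did other lists. In HS3A8-high replicates 1, 2 and 3, mast cell and basophil markers summed to 83.0, 91.65 and 178.8 CPM. B cell markers gave 11.9, 4.41 and 42.95, T and NK cell markers 14.7, 4.64 and 38.1, and immediate-early genes 918.5, 946.3 and 1345. The stem and progenitor sum was lowest in replicate 3, and the erythroid and megakaryocyte sums lay between those of replicates 1 and 2. Rgs14 and Rgs19 were also highest in replicate 3 of that group, at 9.15 and 42.3 CPM, by a smaller margin. Mpo, the granule enzyme myeloperoxidase, was at 5.90, 2.51 and 713.8 CPM in HS3A8-high and at 51.1, 136.5 and 1626 CPM in HS3A8-low. Lyz2, lysozyme, was at 5.03, 3.57 and 423.2 CPM and at 30.6, 41.5 and 1480 CPM. All 15 tested of the 16 granulocyte and monocyte markers had a fitted level below that of HS3A8-low. None was called without the block and 10 with it. Of the 15, 8 passed the count filter through HS3A8-low alone, so their direction was partly fixed by the filter. The part of these cells or transcripts in the RGS values was not tested. Without both libraries of replicate 3, 5 members were called in place of 2: Rgs1, Rgs2, Rgs3, Rgs18 and Rgs19. Over all 11898 genes tested there, 6.29% were called and 6.01% were called lower, up from 3.82% and 3.21%. The call of Rgs3 in that fit is against HS3A8-high libraries without a count.

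Rgs16, known from activated lymphocytes and liver, had 0, 0 and 1 counts in HS3A8-high. HS3A8-low libraries gave 2, 0 and 4 and control libraries 0, 2 and 0. It did not pass the count filter and was not tested. No library but HS3A8-low replicate 3 exceeded the floor of 3 counts.

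The group of Rgs10, Rgs12 and Rgs14 did not move as one. Rgs10, which acts on Gαi and is abundant in myeloid cells and platelets, was at 48.3, 50.2 and 47.8 CPM in HS3A8-high, against 40.3, 49.7 and 65.7 CPM in HS3A8-low. The HS3A8-high libraries lay within the range of HS3A8-low. The control libraries were at 118, 40.9 and 48.0 CPM, with replicate 1 above all others as for Rgs18. The log2 fold change between the fractions was -0.10 (95% confidence interval -0.51 to 0.32), with an adjusted p of 0.812 in edgeR's test.

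Rgs12, a large scaffold with several binding domains, had the highest mean CPM of the family in each of the groups. Its HS3A8-high libraries gave 129.9, 88.2 and 85.2 CPM. In HS3A8-low Rgs12 was at 122.4, 88.9 and 85.8 CPM, so that both fractions of the same replicate number were nearly equal, with ratios of 0.942, 1.01 and 1.01. The control libraries gave 68.1, 91.7 and 96.2 CPM. The log2 fold change was 0.02 (95% confidence interval -0.51 to 0.55), and with the block 0.01 (-0.17 to 0.20), neither with an adjusted p under 0.05 (0.97 and 0.925 in edgeR's test).

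Rgs14, which also binds Gαi-GDP through a GoLoco motif, was at 6.34, 4.10 and 9.15 CPM in HS3A8-high. HS3A8-low libraries gave 10.8, 10.2 and 25.4 and control libraries 10.6, 10.4 and 8.81. The fractions did not overlap, but HS3A8-low replicate 2 was only slightly above HS3A8-high replicate 3. The log2 fold change was -1.25 (SE 0.459, adjusted p 0.193) without and -1.19 (SE 0.222, adjusted p 0.0269) with the block in edgeR's test. Within replicates, HS3A8-low was 1.70, 2.49 and 2.78 times as high.

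Rgs19, which acts on Gαi and Gαz, was at 31.2, 27.1 and 42.3 CPM in HS3A8-high. HS3A8-low libraries gave 50.8, 58.1 and 68.3 and control libraries 29.6, 45.8 and 33.5. The HS3A8-low libraries were above all others. The log2 fold change between the fractions was -0.82 (SE 0.193, adjusted p 0.0683) and with the block -0.84 (SE 0.119, adjusted p 0.0143) in edgeR's test. The ratio of HS3A8-low to HS3A8-high was 1.63, 2.14 and 1.61 in the 3 replicates.

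Of the 8 members tested, 2 were called lower in HS3A8-high, where 3.21% of all 11791 genes tested were called lower and 0.611% higher (451 genes, 3.82%, in all). With the block 5 members were called, against 11.6% of all genes (8.27% lower and 3.32% higher). An unadjusted p under 0.05 was found for 5 members and 19.8% of all genes. The groups did not overlap for 6 members, all lower in HS3A8-high, and 27.6% of all genes had no overlap, 15.1% lower. The median log2 fold change was -1.51 over the 8 members and -0.03 over all genes. These counts describe genes chosen with the counts in view, and Rgs3 entered only through HS3A8-low. The 2 calls fell to 0 without HS3A8-low replicate 2, when edgeR called 0 genes at all (1900 genes at an unadjusted p under 0.05), and to 1 on leaving out replicate 1 or 2 of HS3A8-high or replicate 1 of HS3A8-low. They rose to 5 without HS3A8-high replicate 3. The calls over all genes moved as well, to between 0 and 439 with 1 library left out, so these member counts are not a result about the members. DESeq2 called 4 members and 1305 genes in all, against 451 genes in edgeR's test.

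**Figure D2:**
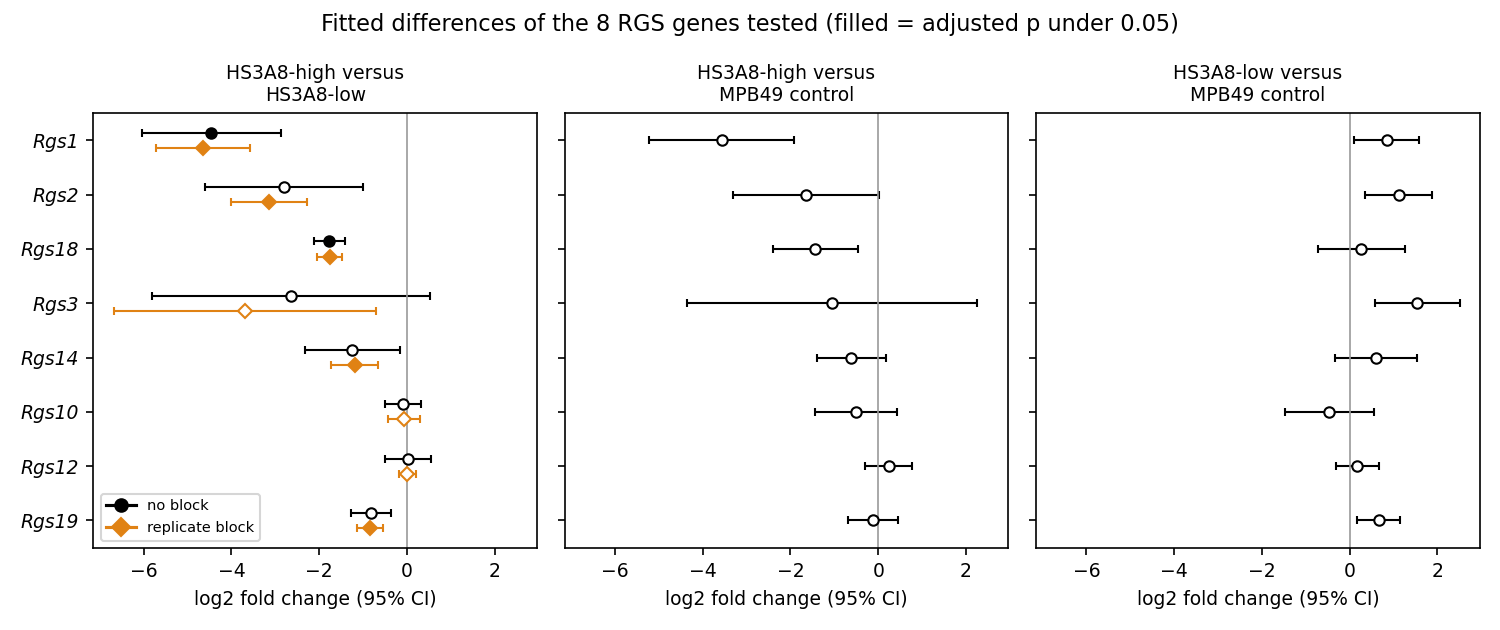
Fitted log2 fold changes (horizontal axes, with 95% confidence intervals) of the 8 RGS genes tested, for HS3A8-high over HS3A8-low, HS3A8-high over MPB49 control and HS3A8-low over MPB49 control, from edgeR without a block (circles) and, between the fractions, with the replicate block (diamonds), filled where the adjusted p was under 0.05. Filled symbols are found only between the fractions, for Rgs1 and Rgs18 in both fits and for Rgs2, Rgs14 and Rgs19 with the block.

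Against the MPB49 control, which holds MEPs not divided by HS3A8, no member was called in either fraction by edgeR, and the adjusted p was 0.315 or more. Over all genes, 2 of 11486 (0.0174%) were called between HS3A8-high and control (4.89% at an unadjusted p under 0.05) and 0 (0%) of 11878 between HS3A8-low and control, where 673 genes (5.67%) had an unadjusted p under 0.05 and DESeq2 called 94. Both comparisons use the same control libraries, and their values are given side by side. Rgs1 was at -3.57 (SE 0.704, adjusted p 0.315) in HS3A8-high over control and at 0.84 (SE 0.318, adjusted p 0.805) in HS3A8-low over control. DESeq2 called Rgs1 in the former (log2 fold change -3.59, adjusted p 2.19e-05) and no other member in either comparison.

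For Rgs18 the values against the control were -1.44 (SE 0.41, adjusted p 0.642) in HS3A8-high and 0.27 (SE 0.422, adjusted p 0.913) in HS3A8-low. The control replicates of Rgs18 spanned 43.2 to 119.8 CPM, which is wider than either fraction. Rgs2 was at -1.65 (adjusted p 0.733) and 1.12 (adjusted p 0.711), with the control libraries between the fractions without overlap on either side. Rgs19 was at -0.12 (adjusted p 0.843) and 0.67 (adjusted p 0.722), and Rgs3 at -1.06 (adjusted p 0.774) and 1.54 (adjusted p 0.711). In all, 3 members were without overlap below the control in HS3A8-high (Rgs1, Rgs2 and Rgs18), against 7% of all genes, and 3 were without overlap above it in HS3A8-low (Rgs2, Rgs3 and Rgs19), against 8.65%, with none below it, against 3.49%.

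The mean of the control was set beside the plain mean of both fractions. The ratio of the former to the latter was 1.03 for Rgs1, 1.24 for Rgs18, 0.783 for Rgs2, 0.784 for Rgs19, 0.905 for Rgs14, 0.853 for Rgs12 and 0.575 for Rgs3. For Rgs10 it was 1.37, with control replicate 1 the only control library above 48.0 CPM. These ratios have the spread of 3 control libraries and were not tested.

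Summed over the 9 members, the family amounted to 243.9, 200.8 and 235.8 CPM in HS3A8-high. HS3A8-low libraries gave 378, 412.7 and 508.4 and control libraries 421.2, 287.3 and 279.3. The order of the members also differed between the groups. Per kb of exon, Rgs10 led in HS3A8-high at 28.5 ± 0.755 (SD, n = 3), above Rgs19 at 15.04 ± 3.52, Rgs18 at 12.6 ± 0.982 and Rgs12 at 11.9 ± 2.95, which overlapped each other. Rgs2 (2.11 ± 2.30) and Rgs14 (1.54 ± 0.596) overlapped below them, and Rgs1 was at 0.408 ± 0.417, overlapping Rgs3 at 0.0675 ± 0.117.

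In HS3A8-low, Rgs18 came first per kb of exon at 42.7 ± 7.26 (SD, n = 3), overlapping Rgs10 at 30.3 ± 7.50, which overlapped Rgs19 at 26.5 ± 3.93. Next came Rgs2 at 14.7 ± 6.71, Rgs12 at 11.7 ± 2.39 and Rgs1 at 9.03 ± 2.44, neighbours of which overlapped, then Rgs14 at 3.65 ± 2.03. In the control the leading genes were Rgs10 at 40.3 ± 24.9 and Rgs18 at 34.2 ± 21.5, which overlapped, and then Rgs19 at 16.3 ± 3.80 and Rgs12 at 10.1 ± 1.78. Rgs2 (6.60 ± 0.604) and Rgs1 (4.87 ± 1.69) overlapped there. The exon length of Rgs1 used here is 6947 bases, the whole gene, because an annotated transcript covers its introns, and its level per kb is understated beside the others.

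As a share of the family total per kb, Rgs18 made up 17.6% on average for HS3A8-high, 30.8% for HS3A8-low and 28.1% for control MEPs. Rgs10 made up 39.6%, 21.7% and 33.3%. Rgs1 went from 0.541% in HS3A8-high to 6.46% in HS3A8-low and 4.29% in the control, and Rgs2 from 2.80% to 10.2% and 6.15%. Rgs19 had nearly the same share in both fractions, 20.7% and 19.2%, and 15.9% in the control. A share falls when another member rises, so these are not independent of the fold changes above.

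**Figure D3:**
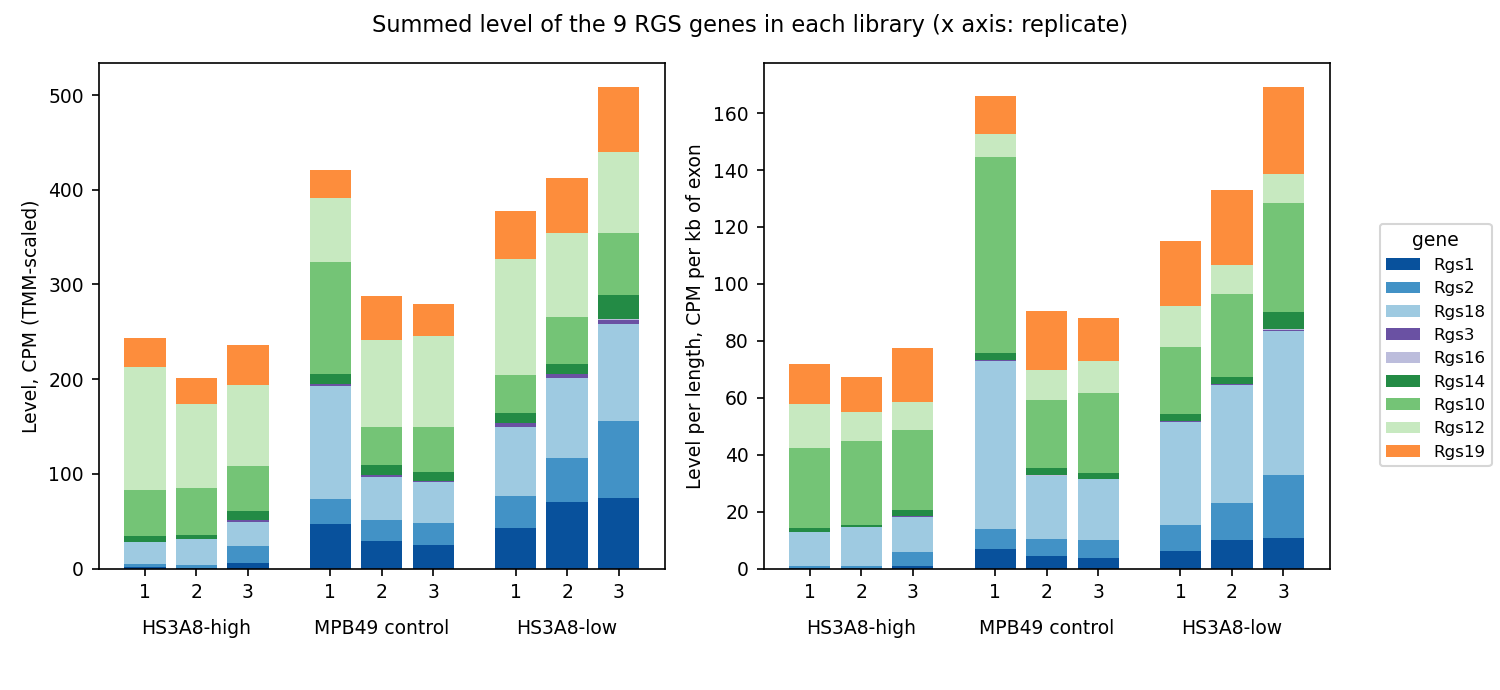
Levels of the 9 RGS genes stacked by library, in CPM (left) and in CPM per kb of exon (right), with the replicate number on the horizontal axes and the libraries grouped as HS3A8-high, MPB49 control and HS3A8-low. The stacks of HS3A8-high, at 200.8 to 243.9 CPM, lack most of Rgs1 and Rgs2 (dark and medium blue), and those of HS3A8-low reach 378 to 508.4 CPM.

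Along the run of RGS genes on chromosome 1, detected and nearly undetected genes alternated. Rgs2, Rgs1 and Rgs18 were measured at the levels given above, all lower in each HS3A8-high library than in any HS3A8-low library. Rgs13, between Rgs2 and Rgs1, gave 1 count from HS3A8-high, 0 from HS3A8-low and 5 from control cells, summed over 3 libraries. Rgs21, between Rgs1 and Rgs18, had no count in any library. Rgs13 is known from germinal centre B cells and mast cells.

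**Figure D4:**
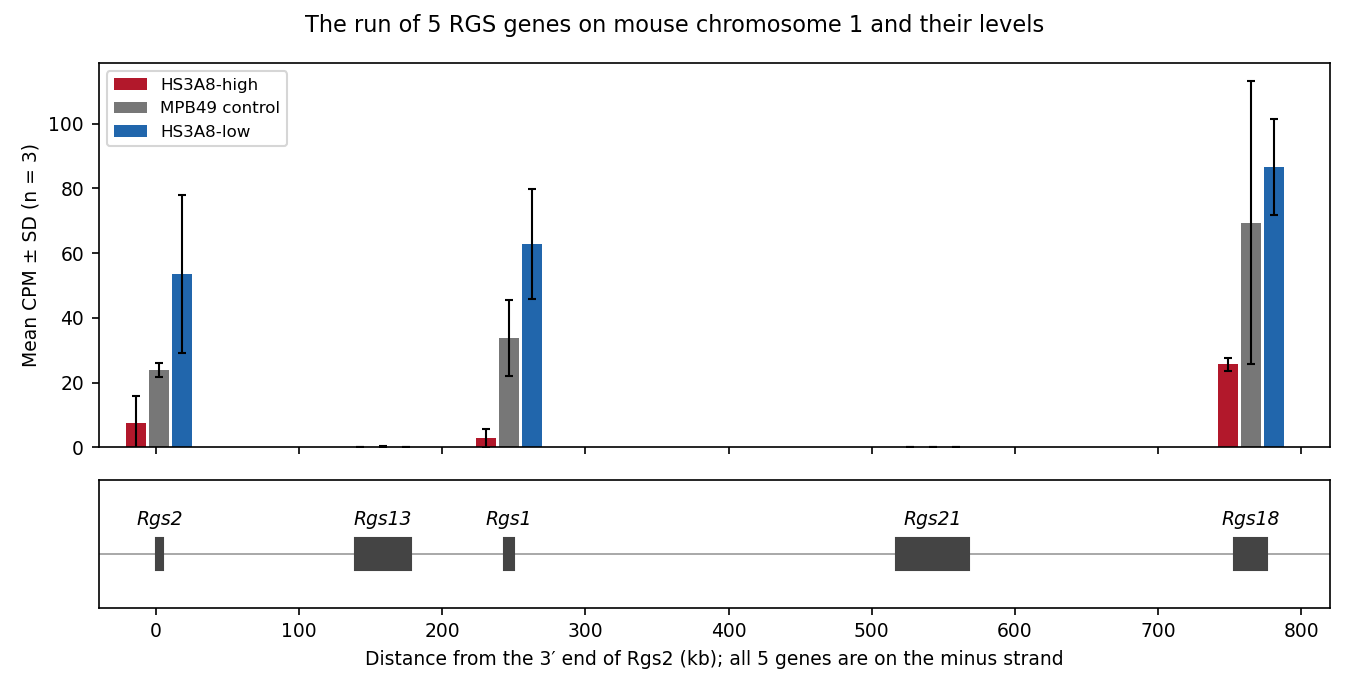
The 5 protein-coding genes of the chromosome 1 run drawn to scale (lower panel, distance in kb) and the mean level of each in CPM by group with whiskers of 1 SD over 3 libraries (upper panel, lower whiskers cut at 0). Rgs2, Rgs1 and Rgs18 have their lowest bar in HS3A8-high, at 7.66, 2.84 and 25.6 CPM, and Rgs13 and Rgs21 are at or near 0.

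The other RGS genes were hardly detected. Of the 13, Rgs4, Rgs5, Rgs9, Rgs17, Rgs20, Rgs21 and Rgs22 had no count in any library, which allows up to 3 counts or 0.189 to 0.255 CPM. Rgs11 had the highest mean level of the rest with 8, 9 and 5 counts summed over HS3A8-high, HS3A8-low and control. Rgsl1 had 0, 9 and 0. None of the 13 passed the filter, so a difference was not detectable at this depth.

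The G protein subunits, on which RGS proteins act, had few calls. Of 15 Gα genes 12 were tested, and none was called without the block. Gnaz, the Gαz subunit of platelets and neurons and a target of Rgs19, was called with the block only (log2 fold change -2.48 and adjusted p 0.0974 in edgeR's test, and -2.38 and 0.0345 with the block), with 0.635 ± 0.32 CPM in HS3A8-high against 3.57 ± 2.44 in HS3A8-low (SD, n = 3). The most abundant Gα gene, Gnai2, was at 415.7 ± 43.4 and 479.2 ± 28.2 CPM. The median log2 fold change of the list was -0.11.

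Of 17 Gβ and Gγ genes 10 were tested. Gng11, a Gγ subunit of platelets, was lower in HS3A8-high (log2 fold change -3.14, SE 0.637, adjusted p 0.0473 in edgeR's test), at 0.621, 0.076 and 0.663 CPM against 3.53, 4.68 and 4.17 in HS3A8-low. Gng2 was added with the block, at -3.38 (adjusted p 0.0185) against -2.99 (adjusted p 0.0986) without it. Gng11, Gng2 and Gnaz passed the count filter through HS3A8-low alone, so their direction was partly fixed by the filter. Gnb1 and Gnb2, the main Gβ genes, were at 249.9 ± 19.6 and 275.3 ± 10.3 CPM in HS3A8-high and at 253.3 ± 10.4 and 264.4 ± 10.4 in HS3A8-low (SD, n = 3), with overlapping ranges. The median of the list was -0.28.

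Among 19 other regulators of G proteins and receptors, all tested, 2 were called and both were lower in HS3A8-high: Gpsm1 (log2 fold change -1.87, SE 0.345, adjusted p 0.0364) and Gpsm3 (-1.25, SE 0.198, adjusted p 0.0279), in edgeR's test. Both carry GoLoco motifs that hold Gαi in its GDP form, as Rgs14 does. Gpsm3 was at 6.71, 9.80 and 8.29 CPM in HS3A8-high, against 18.8, 20.9 and 18.6 in HS3A8-low. The β-arrestin gene Arrb2 was added with the block (-0.62 in both fits, adjusted p 0.059 without and 0.0184 with it). The median of the list was -0.13.

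Of 16 effectors 10 were tested and none was called without the block. With it, the phospholipase C beta genes Plcb2 (log2 fold change -2.27, adjusted p 0.0303) and Plcb3 (-0.64, adjusted p 0.0359) and the Gβγ-activated kinase gene Pik3cg (-0.61, adjusted p 0.037) were lower in HS3A8-high in edgeR's test. Without the block their log2 fold changes were -2.17, -0.65 and -0.63, with adjusted p values of 0.0567, 0.0757 and 0.144. The median of the list was -0.56.

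Receptors had the most calls among these lists. Of 23 G protein-coupled receptors of platelets and progenitors 15 were tested, 6 were called lower in HS3A8-high (7 with the block) and none higher, and the median was -1.34. F2r, the thrombin receptor PAR-1 (log2 fold change -1.67, adjusted p 0.0336), F2rl2, the related PAR-3 (adjusted p 0.0303), and Tbxa2r, the thromboxane receptor (-3.59, adjusted p 0.0257), were among them in edgeR's test. The sphingosine receptor gene S1pr1 (-2.91, adjusted p 0.0134), Lpar6 (-2.24, adjusted p 0.0345) and Adgrg1 (-1.02, adjusted p 0.0463) were the others. F2rl2 rested on 5, 0 and 0 counts in HS3A8-high against 229, 104 and 54 in HS3A8-low, so its fitted log2 fold change of -6.17 depends on the prior count. Tbxa2r had 6, 4 and 10 counts against 133, 78 and 33. F2rl2, Tbxa2r and Ccr2 passed the count filter through HS3A8-low alone, so their direction was partly fixed by the filter. F2r was at 65.1, 46.8 and 37.5 CPM in HS3A8-high and at 207.3, 151.3 and 112.1 in HS3A8-low. The block added the chemokine receptor gene Ccr2, at -3.02 (adjusted p 0.0304) against -2.11 (adjusted p 0.414) without it, whose fractions overlapped. Against the control no gene of these lists was called by edgeR in either fraction. The counts and medians of these lists include genes that passed the filter through 1 fraction alone. The lists were drawn up with earlier results of these libraries known.

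**Figure D5:**
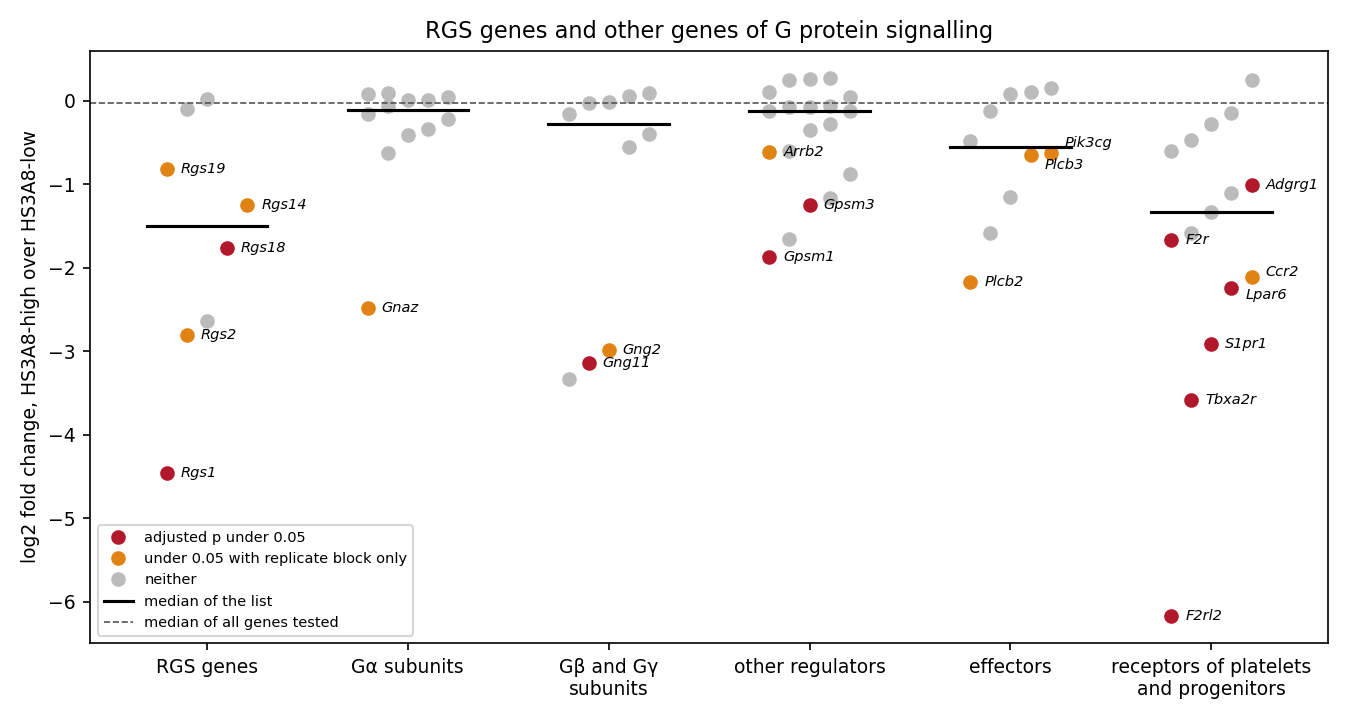
Log2 fold change of HS3A8-high over HS3A8-low (vertical axis) for the RGS genes and 5 lists of other genes of G protein signalling (horizontal axis), 1 point per gene tested, red for an adjusted p under 0.05, orange for one under 0.05 with the replicate block only, a black line at each list's median and a dashed line at the median of all genes. The medians are -1.51 for RGS genes, -0.11 for Gα, -0.28 for Gβ and Gγ, -0.13 for other regulators, -0.56 for effectors and -1.34 for receptors.

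The genes whose log2 CPM followed each called member most closely were looked up among 9329 genes whose mean reached 5 CPM, as a description over 9 libraries that share depth and composition. Rgs18 was followed by Dnajb9 (Pearson's r 0.992), Acadl (0.988) and Cdkn1b (0.984). Rgs1 was followed by Il12a (0.989), Cd27 (0.987) and Tbxas1 (0.987). Rgs2 was nearest to Fxyd5 (0.995), Parp8 (0.986) and Bin1 (0.986), Rgs19 to Sh3bgrl3 (0.977), As3mt (0.97) and Rac2 (0.969), and Rgs14 to Otulinl (0.976), Wls (0.961) and Lamp2 (0.949). No gene was nearest to more than 1 member. Among the members themselves Rgs2 was close to Rgs3 (0.97) and Rgs1 (0.96), and Rgs1 to Rgs18 (0.88), while Rgs10 and Rgs12 ran opposite (-0.70). With 9 libraries in 3 groups, values of this kind follow the group means and single libraries.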

How the data were processed

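Bulk RNA-seq of sorted mouse MEPs was analysed in 9 libraries, 3 per group. The authors prepared low-input libraries of 25000 cells, sequenced them on an Illumina instrument and aligned them to mm10 transcripts with STAR. Their processing notes name STAR 2.5 and HTSeq 0.6.1, while the strand setting and annotation release are not given in the sources used here. The deposited values are raw counts per gene, whole numbers with no normalization and no pooling, and 3 counts correspond to 0.189 to 0.255 CPM.

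Identifiers were joined to GENCODE M21 (GRCm38), which gave symbols for 34490 of 35275. In R 4.3.3, edgeR 4.0.16 was used with TMM, filterByExpr and the quasi-likelihood test on the 2 groups compared, with Benjamini-Hochberg adjustment over all genes tested and an adjusted p under 0.05 for a call. SE is the log2 fold change divided by the root of F. Levels in CPM were scaled over all 9 libraries, and log2 CPM used a prior count of 2. Motifs and coding sequences were read with Python 3.11.15 and Biopython 1.88. The test was checked on simulated counts, the outcome of which is not given here and on which no result rests.

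Replicate numbers were checked for pairing over 12108 genes. Deviations of HS3A8-high libraries from their group mean correlated with those of the same-numbered HS3A8-low library (r 0.492, 0.325 and 0.509) and less with those of another number (-0.469 to 0.122), so the numbers pair these fractions. The pairing comes from the data, not from the labels, and the test without a block was kept as the main one.

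The members and all gene lists were chosen with earlier results of these data known. Named are the 9 members, the genes of the G protein lists called with or without the block, the 2 most abundant genes of a list where none was called, the 3 genes most like each called member, and the 2 most abundant markers of a list beside a member's result. Further genes named were chosen after their values were seen: Gnai2, Gnb1, Gnb2, Alas2, Slc4a1, Pf4, Gp6, Cd3e, Cd4, Trbc1, Lck, Ms4a1 and Pax5. So was Fos, alone of its list. The values of 1 further megakaryocyte marker are not reported here, and it remains in the sums and counts of its list. Alternatives were DESeq2 1.42.0, its size-factor method, no filter, a minimum mean count of 10, 1 fit over all 9 libraries, a block for the replicate number, omission of each library in turn, and omission of replicate 3.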

Additional observations from a re-analysis of the deposited data

How the results depend on the processing

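Over the 3 comparisons, 312 values of single RGS genes under alternatives were compared with the values reported: 282 kept direction and side of the threshold, 12 passed it newly, 6 no longer passed it and 12 changed sign. Between HS3A8-high and HS3A8-low the 451 genes called became 1305 with DESeq2, 1367 with the replicate block, 748 without replicate 3 and 0 to 439 with 1 library left out. The 2 RGS genes called became 4 with DESeq2, 5 with the block, 5 without replicate 3, 1 with all 9 libraries in 1 fit and 0 to 5 with 1 library left out. The block changed no other call of an RGS gene than those of Rgs2, Rgs14 and Rgs19. Between HS3A8-high and control the 2 genes called became 138 with DESeq2, 9 with no count filter, 32 with all 9 libraries, 0 with the block, 0 without replicate 3 and 0 to 5 with 1 library left out, and the RGS genes called went from 0 to 1 with DESeq2. Between HS3A8-low and control DESeq2 called 94 genes in place of 0. Control libraries did not pair with either fraction by number (r -0.346 to 0.0318).

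Some values changed sign. For HS3A8-high over HS3A8-low, Rgs12 (0.02) was at -0.21 without HS3A8-high replicate 1, and at -0.04 and -0.07 when replicate 2 or 3 of HS3A8-low was omitted, within -0.21 to 0.23 over single omissions. Rgs10 (-0.10) was at 0.15 without replicate 3, and ranged from -0.22 to 0.11 over single omissions, the latter without HS3A8-low replicate 3. For HS3A8-high over control, Rgs19 was at 0 without HS3A8-high replicate 2 and 0.08 without control replicate 2 (range with other settings from -0.38), and Rgs10 went from -0.77 to 0.14, the latter without control replicate 1. For HS3A8-low over control, Rgs12 ranged from -0.01 (without HS3A8-low replicate 1) to 0.35, Rgs10 from -0.91 to 0.20 (without control replicate 1), Rgs14 from -0.07 (without replicate 3) to 0.83, and Rgs18 from -0.16 (without replicate 3) to 0.95. Rgs18 stayed between -1.85 and -1.60 and Rgs1 between -5.71 and -4.05 between the fractions. Rgs3 was at -9.04 without HS3A8-high replicate 3, where both remaining HS3A8-high libraries have no count, and such a fitted value depends on the prior count. The cause of the lost and gained calls was not tested.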
